A study of Mus musculus with 11 samples.

Results

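Taste signalling genes of tuft cells were examined in sorted epithelial cells of the mouse small intestine. The set was given by name as 5 genes, Gnat3, Gng13, Plcb2, Trpm5 and Rgs13, and was taken from a deposited RPKM table of 11366 genes by gene symbol. Of these, 4 were analysed and Gng13 was not analysed here. All 4 passed the filter for testing (3 or more libraries at 1 RPKM or above), as did 10482 genes of the table. RPKM is the number of reads scaled by gene length and by the total of the library.

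Tuft cells are rare chemosensory cells of the gut lining that share a signalling cascade with the taste buds of the tongue. In that cascade a receptor activates gustducin, a G protein whose alpha subunit is encoded by Gnat3 and whose gamma subunit is encoded by Gng13. The beta-gamma part activates the phospholipase encoded by Plcb2, which makes inositol trisphosphate and so releases calcium from internal stores, and calcium opens Trpm5, a cation channel that depolarises the cell. Rgs13 belongs to the regulators of G protein signalling, which speed the return of G proteins to their inactive state. In the intestine tuft cells are known for sensing succinate made by protists and bacteria and for starting type 2 immune responses to parasites.

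The libraries came from wild-type mice of 3 groups. SFB mice ate standard chow and were colonized with SFB, the usual short name of segmented filamentous bacteria, which attach to the ileal lining (n = 4). NFF mice received the diet with little fermentable fiber, without colonization (n = 4), and Control mice ate standard chow, without colonization (n = 3). All libraries were made from live sorted cells that carried EpCAM and lacked CD45, CD31 and CD44. The labels give neither strain nor age and do not say whether each library is 1 animal, so p-values measure the spread between these libraries, which may be technical. Some intestinal tuft cells carry CD45, and the gate removes any such cells.

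Over all tested genes, SFB 4, SFB 2 and Control 2 deviated most from the mean of their group (0.43, 0.38 and 0.35 as a root mean square, log2), and the other 8 libraries deviated by 0.16 to 0.28. Control 2 had a summed level of 530 RPKM over 6 distal small intestine genes, against 2176 to 5672 RPKM in the other 10 libraries. SFB 4 had the highest level of 23 genes of dividing cells, at 493 RPKM, against 57.3 to 234 RPKM in the other libraries. Epcam, the gene of the sorting marker, averaged 587 ± 79.8 RPKM in SFB, 618 ± 25.7 in NFF and 545 ± 64.0 in Control (SD, n = 4, 4 and 3). Cd44, the gene of a marker the sort selected against, was called higher in SFB against NFF (0.80, limma adjusted p = 0.013), as were 3.14% of tested genes. It averaged 1.70 ± 0.493 RPKM in SFB, 0.537 ± 0.139 in NFF and 0.742 ± 0.261 in Control. Its highest value was 0.646 RPKM in NFF and 0.969 in Control, and its lowest in SFB was 1.17. Cd44 therefore passed the filter only through SFB, where it was higher, and the call is not independent of the filter.

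The genes lie on 4 chromosomes of GRCm38, in the GENCODE M21 annotation. Gnat3 spans 57286 bases of chromosome 5 (17962549 to 18019834, plus strand), Plcb2 20922 bases of chromosome 2 (118707517 to 118728438, minus strand), Trpm5 25490 bases of chromosome 7 (143069153 to 143094642, minus strand) and Rgs13 38719 bases of chromosome 1 (144138654 to 144177372, minus strand). Trpm5 shares 220 exon bases with Tssc4 on the opposite strand. The library kits do not mark strand, so reads from those bases cannot be assigned to either gene. Tssc4 stood at 3.79 ± 1.14 RPKM in SFB, 3.89 ± 0.348 in NFF and 3.83 ± 0.355 in Control (SD, n = 4, 4 and 3).

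The 250 bases before the RefSeq start of each gene (GRCm38.p6) are shown because the 4 genes had the same order of group means, as described further on. They were searched on both strands for ATGCAAAT, the octamer bound by POU proteins, the family of the tuft cell regulator Pou2f3, and for its inner part TTTGCA, which lies within the octamer. Capitals mark a match. None of the 4 stretches held the octamer, which 1.60% of 32851 promoters of this length held, and 1 of the 4, that of Rgs13, held the shorter form, from -210 to -205 relative to the start, against 13.5% of all promoters.
Gnat3, chr5:17962320-17962569, plus strand: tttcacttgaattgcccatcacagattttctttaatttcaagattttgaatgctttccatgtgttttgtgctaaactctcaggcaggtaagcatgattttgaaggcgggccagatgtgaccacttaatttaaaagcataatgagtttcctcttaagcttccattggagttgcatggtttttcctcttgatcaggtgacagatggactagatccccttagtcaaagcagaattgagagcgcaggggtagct
Plcb2, chr2:118728439-118728688, minus strand: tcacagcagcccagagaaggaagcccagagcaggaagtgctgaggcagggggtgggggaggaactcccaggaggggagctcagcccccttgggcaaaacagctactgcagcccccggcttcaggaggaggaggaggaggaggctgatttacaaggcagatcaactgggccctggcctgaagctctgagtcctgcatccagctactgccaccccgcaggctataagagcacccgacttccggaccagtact
Trpm5, chr7:143094643-143094892, minus strand: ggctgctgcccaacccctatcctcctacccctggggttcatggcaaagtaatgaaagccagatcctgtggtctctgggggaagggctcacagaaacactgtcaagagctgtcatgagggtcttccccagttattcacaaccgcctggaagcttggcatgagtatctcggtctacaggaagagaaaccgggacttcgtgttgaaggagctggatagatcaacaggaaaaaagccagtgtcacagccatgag
Rgs13, chr1:144177373-144177622, minus strand: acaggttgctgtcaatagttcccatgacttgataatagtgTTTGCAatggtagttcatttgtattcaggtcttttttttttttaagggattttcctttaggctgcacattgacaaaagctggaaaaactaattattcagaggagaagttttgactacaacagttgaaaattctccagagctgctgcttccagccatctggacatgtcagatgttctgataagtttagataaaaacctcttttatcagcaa

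All 4 taste signalling genes had their lowest group mean in SFB and their highest in NFF, with Control between them. SFB and NFF libraries did not overlap for any of the 4 genes. Levels per length followed the order Rgs13 first and Plcb2 last in 10 of 11 libraries, and in SFB 4 Gnat3 stood above Rgs13. Averaged over all libraries, Rgs13 stood at 22.9 RPKM, Trpm5 at 11.9, Gnat3 at 11.7 and Plcb2 at 1.38, which placed them above 81.8%, 68.0%, 67.6% and 8.68% of the tested genes. Trpm5 and Gnat3 changed places from library to library and their order was not settled by these data.

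Gnat3, the gustducin alpha subunit, had 7.70, 3.52, 2.31 and 2.20 RPKM in SFB 1 to 4, against 23.8, 19.3, 14.1 and 24.5 RPKM in NFF 1 to 4 and 3.91, 8.77 and 18.6 RPKM in Control 2, 4 and 5. The highest SFB library stayed under the lowest NFF library, whereas the SFB and Control libraries overlapped because Control 2 was low. The means were 3.93 ± 2.58 RPKM in SFB, 20.4 ± 4.80 in NFF and 10.4 ± 7.47 in Control (SD, n = 4, 4 and 3).

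Plcb2, the phospholipase, was the least abundant of the genes. It had 0.704, 0.764, 0.644 and 0.276 RPKM in SFB 1 to 4, against 2.695, 2.18, 1.17 and 1.91 RPKM in NFF 1 to 4 and 2.26, 0.812 and 1.78 RPKM in Control 2, 4 and 5. Every SFB library was below every library of the other groups, the nearest being Control 4. The means were 0.597 ± 0.220 RPKM in SFB, 1.99 ± 0.636 in NFF and 1.62 ± 0.738 in Control (SD, n = 4, 4 and 3). At these levels the log2(RPKM + 1) scale used for testing understates the difference.

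Trpm5, the channel, had 5.24, 2.35, 2.48 and 0.727 RPKM in SFB 1 to 4, against 21.5, 22.5, 14.2 and 24.6 RPKM in NFF 1 to 4 and 15.7, 6.50 and 14.8 RPKM in Control 2, 4 and 5. SFB lay below both other groups without overlap, and NFF and Control overlapped at NFF 3. The means were 2.70 ± 1.87 RPKM in SFB, 20.7 ± 4.52 in NFF and 12.3 ± 5.07 in Control (SD, n = 4, 4 and 3).

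Rgs13, the regulator, had 11.5, 6.03, 4.00 and 1.66 RPKM in SFB 1 to 4, against 31.2, 39.4, 29.0 and 47.9 RPKM in NFF 1 to 4 and 24.2, 19.6 and 37.3 RPKM in Control 2, 4 and 5. SFB again lay below both other groups without overlap. The means were 5.79 ± 4.20 RPKM in SFB, 36.9 ± 8.57 in NFF and 27.0 ± 9.15 in Control (SD, n = 4, 4 and 3). Within SFB, library 1 had the highest value of Gnat3, Trpm5 and Rgs13, and library 4 had the lowest value of all 4 genes.

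**Figure D1:**
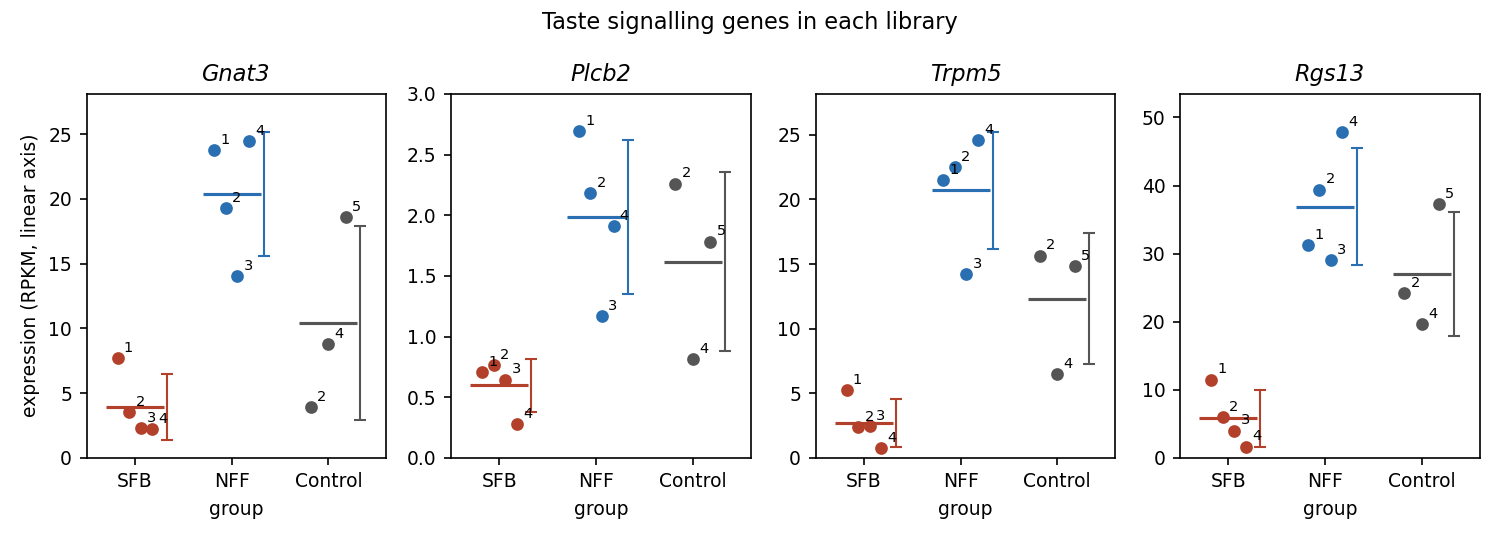
Expression of the 4 genes in RPKM (linear axis, a different range in each panel) in the SFB, NFF and Control libraries. Points are libraries with their replicate number, horizontal lines are group means and bars are 1 SD (n = 4, 4 and 3); SFB points lie below all NFF points in every panel.

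The comparison of SFB with NFF differs in both diet and colonization. All 4 genes fell in SFB, where 4.2% of the 10482 tested genes were called lower (limma with Benjamini-Hochberg adjustment over all genes, adjusted p under 0.05). The ratio of mean RPKM was 0.130 for Trpm5, 0.157 for Rgs13, 0.193 for Gnat3 and 0.300 for Plcb2. Libraries of the groups did not overlap for 4 of 4 genes, against 9.91% of tested genes that were lower without overlap. Plcb2 passed the filter only through NFF and Control libraries, where it was higher, so its part in these counts is not independent of the filter. The median log2 fold change of the 4 genes was -2.44, against 0.02 over all genes tested.

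On the log2(RPKM + 1) scale Trpm5 fell by 2.67 ± 0.36 (SE; limma adjusted p = 0.0022) and Rgs13 fell by 2.67 ± 0.39 (SE; limma adjusted p = 0.0029). These ranked 44 and 65 by p among all genes. Gnat3 fell by 2.21 ± 0.41 (SE; limma adjusted p = 0.0092), with a 95% interval of -3.10 to -1.33. Plcb2 fell by 0.89 ± 0.21 (SE; limma adjusted p = 0.028), with an interval of -1.35 to -0.43, and by 1.60 with a pseudocount of 0.1. The Plcb2 call was lost without NFF 1 (-0.78, limma adjusted p = 0.070), NFF 2 (-0.85, 0.089), NFF 4 (-0.89, 0.076), SFB 3 (-0.91, 0.055) or SFB 4 (-0.79, 0.053), whereas Trpm5, Rgs13 and Gnat3 kept theirs without any single library. Without SFB 4, SFB 2 and Control 2, 3 of the 4 were called, with Plcb2 lost at -0.81 (limma adjusted p = 0.059). That fit called 862 of 10327 tested genes in either direction.

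The comparison of SFB with Control holds the chow diet constant. None of the 4 genes was called, and their libraries were nonetheless mostly apart. Limma with Benjamini-Hochberg adjustment called 0 of 4, against 0.0763% of tested genes called lower, while 4 of 4 had an unadjusted p under 0.05, as did 12.1% of all tested genes. SFB libraries lay below Control libraries without overlap for 3 of 4 genes, Plcb2, Trpm5 and Rgs13, against 6.05% of tested genes lower without overlap. In these counts too, Plcb2 was present only because NFF and Control libraries, where it was higher, carried it through the filter. The ratio of mean RPKM was 0.214 for Rgs13, 0.219 for Trpm5, 0.369 for Plcb2 and 0.378 for Gnat3, and the median log2 fold change was -1.51, against 0.01 over all genes.

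Rgs13 differed by -2.21 ± 0.42 on the log2 scale (SE; limma adjusted p = 0.057), with a 95% interval of -3.12 to -1.30, and Trpm5 by -1.91 ± 0.39 (SE; limma adjusted p = 0.072), with an interval of -2.76 to -1.06. Gnat3 differed by -1.12 ± 0.44 (SE; limma adjusted p = 0.335) and Plcb2 by -0.68 ± 0.23 (SE; limma adjusted p = 0.249). Single libraries decided these calls. Without SFB 1, Rgs13 was called at -2.58 (limma adjusted p = 0.012) and Trpm5 at -2.21 (0.028). Without SFB 4, Rgs13 was called at -1.83 (0.031), and without Control 4, Trpm5 was called at -2.28 (0.045). The Gnat3 difference was -0.62 without Control 5 and -1.61 without Control 2, uncalled both times.

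NFF and Control libraries differ by diet alone, as labelled. None of the 4 genes was called, and their intervals were wide. Limma with Benjamini-Hochberg adjustment called 0 of 4, as it called 0% of tested genes, and 1 of 4, Gnat3, had an unadjusted p under 0.05, as did 4.82% of all tested genes. All 4 fold changes were above 0, with a median of 0.61 against -0.01 over all genes, but none of the 4 was higher in NFF without overlap, against 5.35% of tested genes. Gnat3 differed by 1.10 (95% interval 0.14 to 2.05; limma adjusted p = 0.896), Trpm5 by 0.76 (-0.09 to 1.61; 0.896), Rgs13 by 0.46 (-0.45 to 1.37; 0.896) and Plcb2 by 0.21 (-0.29 to 0.70; 0.908). Without Control 4 the difference was 0.39 for Trpm5, 0.26 for Rgs13 and -0.04 for Plcb2, and the median was 0.33. Without Control 5 it was 0.71 for Rgs13 and 0.39 without Control 2 for Plcb2, and that of Gnat3 was 0.60 without Control 2. With a covariate for dividing cells, described further on, the median was 0.14, with Trpm5 at 0.26, Rgs13 at 0.01 and Plcb2 at -0.05. The 3 comparisons share libraries with each other, so their fold changes are not independent of one another.

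**Figure D2:**
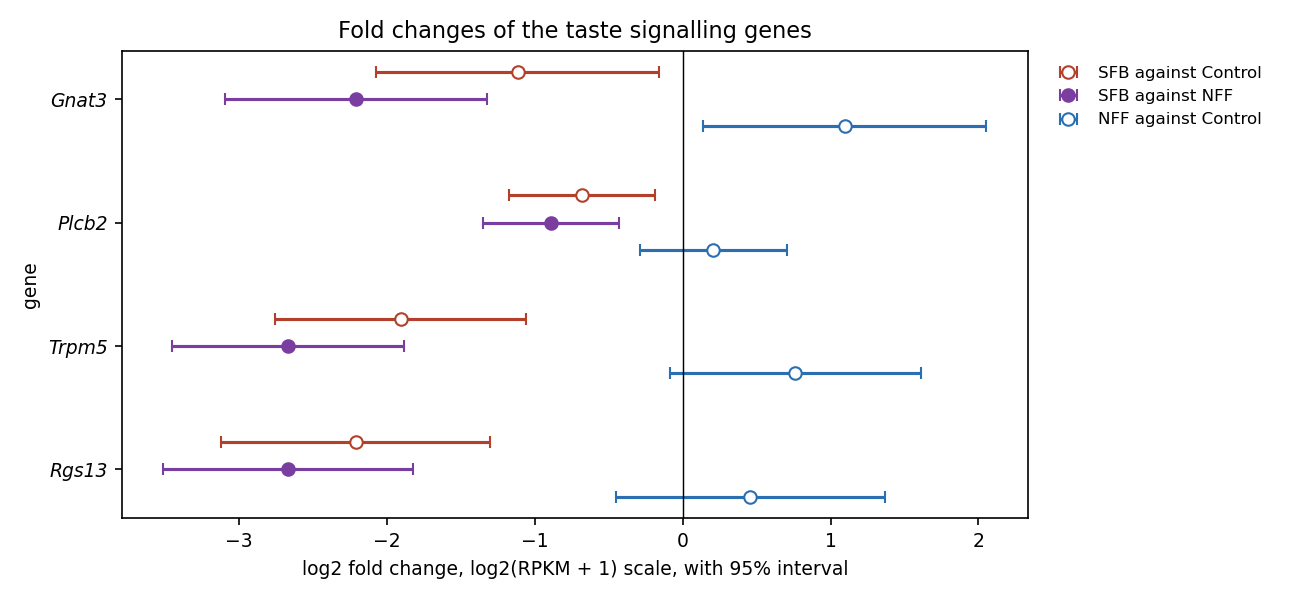
Log2 fold changes of the 4 genes on the log2(RPKM + 1) scale (horizontal axis) with 95% intervals from limma, for SFB against Control, SFB against NFF and NFF against Control. Filled points had an adjusted p under 0.05 over all genes: the 4 values of SFB against NFF, from -2.67 for Trpm5 and Rgs13 to -0.89 for Plcb2.

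Other markers of tuft cells moved in the same direction. Of 30 listed markers 28 were tested, and 24 of the 28 were called lower in SFB against NFF, as were 4.2% of tested genes. All 28 fold changes were below 0. Some markers passed the filter only with NFF and Control libraries, where they were higher, so these counts are not independent of the filter. Examples were Hpgds, at 0.853 RPKM in SFB and 3.97 in NFF, and Itprid1, at 0.671 RPKM in SFB and 2.70 in NFF. Among those called lower were the transcription factor genes Pou2f3 and Spib, the actin-binding protein gene Avil, and the kinase genes Dclk1, Bmx and Matk. The eicosanoid genes Ptgs1, Ltc4s, Alox5, Alox5ap and Hpgds were called lower, as were the receptor genes Ffar3, Il17rb and Siglecf and Chat, which makes acetylcholine. Sh2d7, Vav1, Fyb, Pik3r5, Ptpn6, Kctd12, Lrmp and Itprid1 were called lower as well. The median log2 fold change over all 28 was -1.84. Without SFB 4, SFB 2 and Control 2, 20 of 28 were called, where 862 of 10327 tested genes were called in either direction. With the dividing cell covariate 16 of 28 were called, where 680 of 10482 tested genes were called in either direction. In bulk RNA a smaller number of tuft cells and less of each transcript per tuft cell cannot be told apart.

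Against Control, 0 of the 28 markers were called and 28 of 28 were below 0 in SFB, with a median of -1.53. The share of all tested genes called lower was 0.0763%. Of the markers 22 of 28 were lower without overlap, against 6.05% of tested genes. In this count too, some markers were present only because NFF and Control libraries carried them through the filter. Bmx, a kinase gene, differed by -1.86 (limma adjusted p = 0.051) and Avil by -2.01 (0.052). Pou2f3 differed by -1.12 (0.106) and Dclk1 by -1.08 (0.099). The number of markers called was 13 without SFB 1, where 56 genes were called in all, 7 without SFB 4 (94 in all), 1 without NFF 4 (23 in all) and 8 without Control 4 (39 in all). It was 22 with array weights (1948 in all), 13 with the dividing cell covariate (186 in all) and 1 with quantile normalization (23 in all). In NFF against Control 28 of 28 were above 0 with a median of 0.36 and 0 called, and 21 of 28 were above 0 without Control 4 (median 0.14), 25 without NFF 4 (0.23), 23 with array weights (0.09) and 18 with the dividing cell covariate (0.06). The summed level of the 28 genes was 42.2 to 149 RPKM in SFB, 285 to 553 RPKM in NFF and 196 to 367 RPKM in Control.

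In SFB against NFF Trpm5 and Rgs13 stood near the strongest end of the marker list and Plcb2 near the weakest. In SFB against NFF 1 of the 28 markers had a lower log2 fold change than Trpm5, 1 than Rgs13, 9 than Gnat3 and 25 than Plcb2. In SFB against Control the numbers were 6 for Trpm5, 1 for Rgs13, 19 for Gnat3 and 24 for Plcb2. In NFF against Control all 28 markers had a lower fold change than Gnat3 and Trpm5, 21 than Rgs13 and 5 than Plcb2. Those ranks are on a scale that compresses low values, so the genes were also expressed as a percentage of the summed RPKM of the 28 markers, with no pseudocount, a measure chosen after the data were seen.

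By that measure Trpm5 was a smaller part of the marker sum in SFB than in NFF. The sum holds markers that moved little, such as Inpp5j, at 7.18 RPKM in SFB and 8.41 in NFF. Other markers fell strongly, such as Ffar3, at 1.49 RPKM in SFB and 11.5 in NFF. A lower share in SFB therefore does not show that a gene fell more than each of the markers. It stood at 3.52%, 2.79%, 3.01% and 1.72% of the marker sum in SFB 1 to 4, against 5.71%, 5.67%, 4.99% and 4.45% in NFF 1 to 4 and 4.26%, 3.32% and 4.17% in Control 2, 4 and 5. SFB and NFF did not overlap, nor did NFF and Control, while SFB 1 lay above Control 4. Rgs13 stood at 3.93% to 7.73% in SFB, 8.31% to 10.2% in NFF and 6.59% to 10.5% in Control, so SFB lay below NFF and overlapped Control.

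As a percentage of the marker sum, Gnat3 and Plcb2 showed no such separation. Gnat3 made up 4.34% ± 1.13 of the marker sum in SFB, 5.13% ± 0.820 in NFF and 3.58% ± 2.21 in Control (SD, n = 4, 4 and 3), and all groups overlapped. Plcb2 made up 0.704% ± 0.185 in SFB, 0.506% ± 0.165 in NFF and 0.510% ± 0.101 in Control, with overlap between all groups. On the log2(RPKM + 1) scale, the level of Trpm5 minus the mean of the 28 markers was 0.02 ± 0.22 in SFB, 0.94 ± 0.14 in NFF and 0.54 ± 0.26 in Control. That of Gnat3 was 0.45 ± 0.35 in SFB, 0.92 ± 0.19 in NFF and 0.18 ± 1.05 in Control, and that of Plcb2 was -1.06 ± 0.38 in SFB, -1.92 ± 0.33 in NFF and -1.76 ± 0.14 in Control. That of Rgs13 was 0.82 ± 0.43 in SFB, 1.75 ± 0.12 in NFF and 1.65 ± 0.28 in Control (SD). On this log2 measure Gnat3 did not overlap between SFB (-0.042 to 0.76) and NFF (0.79 to 1.20), and Plcb2 in SFB (-1.59 to -0.70) lay above Control (-1.88 to -1.61). None of these differences was tested.

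**Figure D3:**
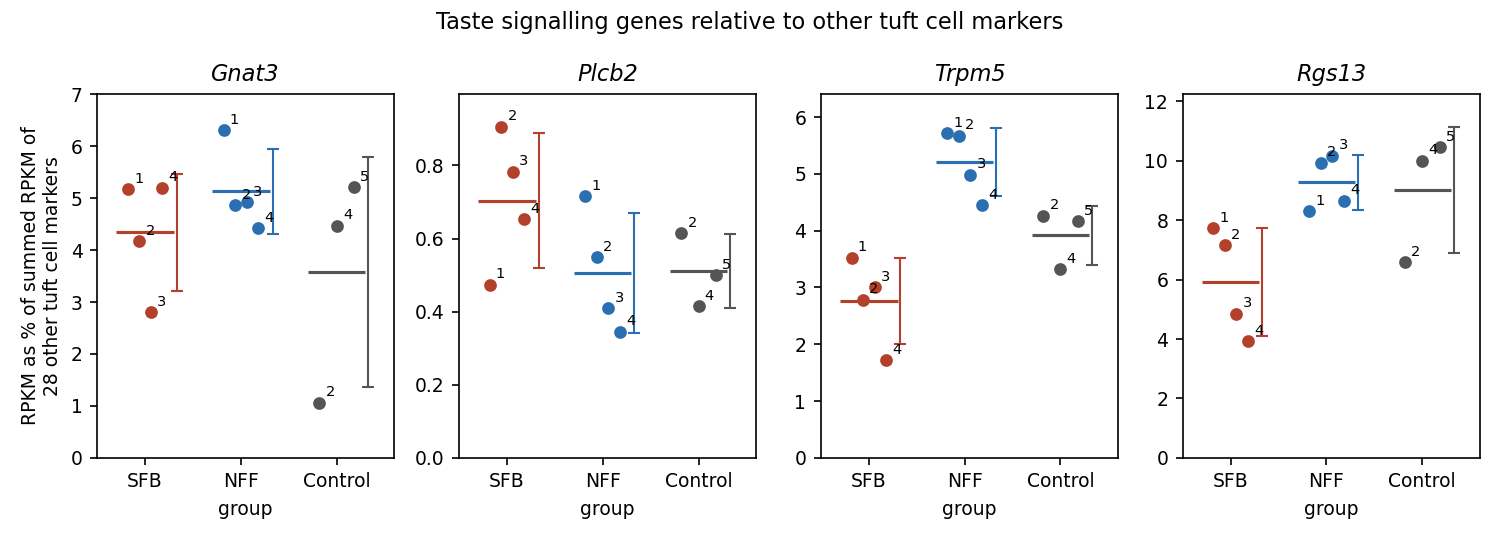
RPKM of each gene as a percentage of the summed RPKM of 28 other tuft cell markers in the same library, for SFB, NFF and Control. Points are libraries with their replicate number, lines are means and bars 1 SD; Trpm5 lies at 1.72% to 3.52% in SFB and 4.45% to 5.71% in NFF, and Gnat3 is lowest in Control 2, at 1.06%.

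Gnat3 parted from the other genes in Control 2. Its level there was 0.25 times that of Trpm5, whereas in the other 10 libraries the ratio was 0.86 to 3.02, the highest in SFB 4. Trpm5 and Plcb2 had their highest Control value in the same library. Control 2 was also the library with the low distal gene level given above, and its summed level of 4 proximal small intestine genes was 3383 RPKM, against 207 and 341 RPKM in Control 4 and 5. The part of gut position in the Gnat3 value was not tested.

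Over the 11 libraries, Trpm5 and Rgs13 followed the mean of the other genes of the set more closely than Plcb2 and Gnat3 did. Pearson's r of a gene with the mean of the other 3 was 0.98 for Trpm5, 0.96 for Rgs13, 0.86 for Plcb2 and 0.85 for Gnat3, which ranked 5, 18, 176 and 247 among 10479 genes. After the group means were subtracted r was 0.89 for Trpm5, 0.86 for Rgs13, 0.53 for Plcb2 and 0.50 for Gnat3, with ranks of 15, 29, 855 and 1471. The genes outside the set whose levels were most like the mean of the 4 were Kctd12 (r = 0.99), Avil (0.99), Spib (0.99), Strip2 (0.99), Alox5 (0.99), Sh2d7 (0.98), Siglecf (0.98) and Tspan6 (0.98). Of these 8, 6 were on the list of tuft cell markers and Strip2 and Tspan6 were not. Strip2 stood at 1.02 RPKM in SFB, 6.07 in NFF and 4.24 in Control, and Tspan6 at 3.03 RPKM in SFB, 17.7 in NFF and 11.8 in Control. These correlations describe 11 libraries that share their group structure and carry no test.

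Of 10 receptor genes listed beside the cascade 4 were tested, all for metabolites. Whether these 4 receptors signal through the taste signalling genes was not tested. Ffar3 and Sucnr1 were also on the list of tuft cell markers, so the lists are not separate. In SFB against NFF 1 of the 4 was called lower, against 4.2% of tested genes, and all 4 fold changes were below 0. Ffar3, a receptor for short-chain fatty acids, fell by 2.41 (limma adjusted p = 0.0029), with means of 1.49 RPKM in SFB, 11.5 in NFF and 7.20 in Control. Sucnr1, the succinate receptor, differed by -1.45 (adjusted p = 0.052) and stood at 2.11 RPKM in SFB, 7.05 in NFF and 5.67 in Control. Ffar2, also for short-chain fatty acids, differed by -1.04 (0.056) and Ffar4, for long-chain fatty acids, by -0.02 (0.969). Against Control, 0 of the 4 were called, with Ffar3 at -1.83 (0.072) and Sucnr1 at -1.17 (0.320). The taste receptor genes Tas1r1 and Tas1r3 were not analysed here.

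Of the relatives of the 4 genes in their own families, 2 gamma subunits were called lower in SFB against NFF and no others were called. Over all tested genes 4.2% were called lower and 3.14% higher in that comparison, and 0.0763% were called lower in SFB against Control. At these shares, 0 calls in a small family do not show that the family was unchanged. Among 9 other G protein alpha subunits 0 were called in any of the 3 comparisons, and the abundant Gna11, at 204 RPKM in SFB and 247 in NFF, differed by -0.27. Gnai3 stood at 109 RPKM in SFB and 80.7 in NFF, a difference of 0.43. The lowest unadjusted p against Control belonged to Gnai1 (-0.72, limma adjusted p = 0.398) and Gna12 (-0.30, 0.543). Of 3 beta subunits 0 were called: in SFB against NFF Gnb1 differed by 0.10, Gnb2 by -0.01 and Gnb5 by -0.21.

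Among 6 other gamma subunits 2 fell in SFB against NFF and 4 were not called, where 4.2% of all tested genes were called lower. Gng11 fell by 1.24 (limma adjusted p = 9.8e-04), with 7.28 RPKM in SFB, 18.6 in NFF and 10.8 in Control, and Gngt2 fell by 0.91 (0.028), with 2.80 RPKM in SFB, 5.84 in NFF and 3.21 in Control. The abundant Gng12 differed by 0.21 and Gng5 by -0.01, and Gng10 differed by -0.31 in SFB against Control (0.644).

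Of the other phospholipases C and inositol trisphosphate receptors 8 were tested and 0 called in any comparison, where 4.2% of tested genes were called lower in SFB against NFF. In SFB against NFF 3 of the 8 were lower without overlap, against 9.91% of tested genes. Itpr2, among these 8, was also on the list of tuft cell markers. Itpr3, the calcium release channel paired with Plcb2 in taste cells, stood at 17.4 RPKM in SFB, 17.4 in NFF and 15.9 in Control, a difference of -0.07 between SFB and NFF (limma adjusted p = 0.886). Plcb3, a widely expressed relative of Plcb2, stood at 124 RPKM in SFB and 113 in NFF and differed by 0.14. Plcd1 differed by -0.56 (0.051), Plcg1 by -0.38 (0.130) and Plcg2 by -0.39 (0.139).

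Among 4 other channels of the Trpm family 0 were called in any comparison, where 4.2% of tested genes were called lower in SFB against NFF. In SFB against NFF 1 of the 4 was lower without overlap, against 9.91% of tested genes. Trpm4, the closest relative of Trpm5, stood at 23.5 RPKM in SFB, 29.9 in NFF and 24.5 in Control, and differed by -0.34 between SFB and NFF (limma adjusted p = 0.150). Trpm6 and Trpm7, channels linked to magnesium, differed by -0.55 and 0.05. Of 4 other regulators of G protein signalling 0 were called, where the same 4.2% applies, and 2 were lower without overlap in SFB against NFF. Rgs2 came nearest, at 7.69 RPKM in SFB, 28.9 in NFF and 20.9 in Control, a difference of -1.59 between SFB and NFF (limma adjusted p = 0.051). Rgs22 differed by -0.64 and Rgs3 by 0.11.

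**Figure D4:**
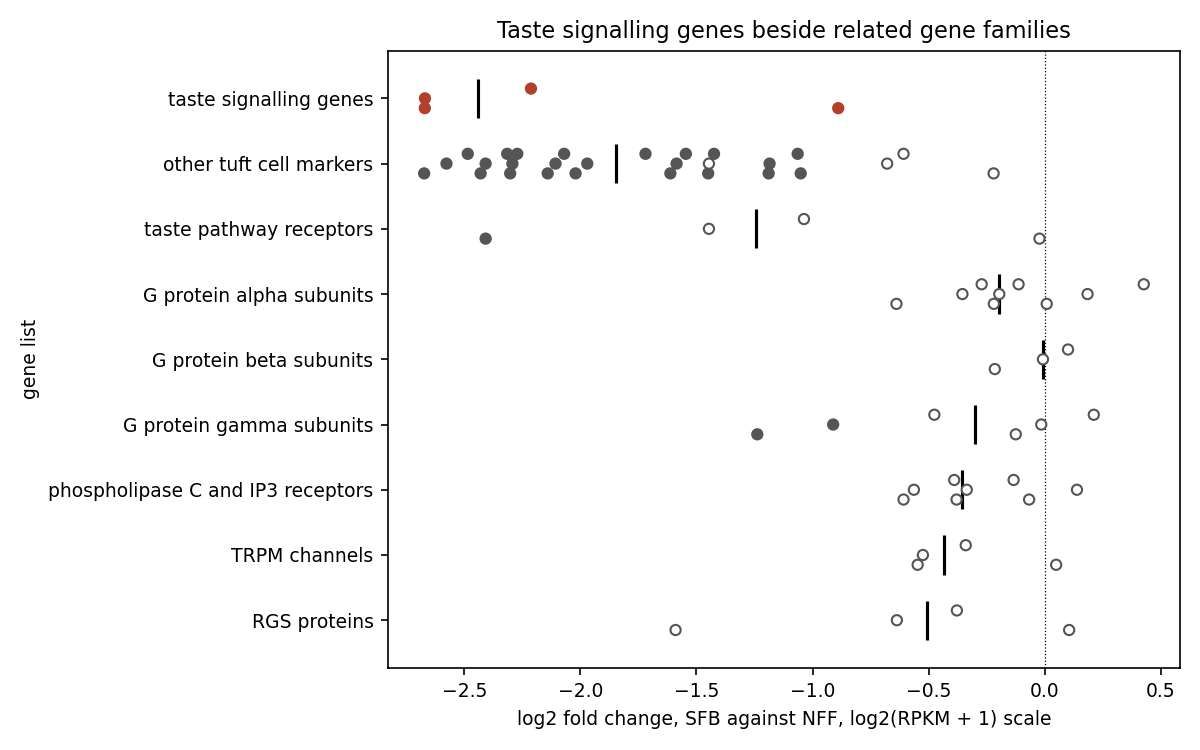
Log2 fold changes in SFB against NFF on the log2(RPKM + 1) scale (horizontal axis) for the 4 taste signalling genes and the tested genes of 8 lists (rows); filled points had an adjusted p under 0.05 over all genes and vertical bars are medians. The 4 genes, with a median of -2.44, lie among the other tuft cell markers, with a median of -1.84, and the medians of the G protein, phospholipase, channel and regulator families lie between -0.51 and -0.01. Ffar3, Sucnr1 and Itpr2 each appear both in the marker row and in the row of another list.

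Some genes of other cell types differed between SFB and NFF. Of 23 genes of dividing cells 3, the cyclin gene Ccnb2 and the spindle genes Birc5 and Tpx2, rose in SFB against NFF, where 3.14% of tested genes were called higher, and their summed level was 111 to 493 RPKM in SFB, 57.3 to 87.6 RPKM in NFF and 70.4 to 234 RPKM in Control. All 23 were above 0, with a median of 1.31 against 0.02 over all tested genes. The number called was 12 without SFB 2, 2 without SFB 1, 1 without SFB 3, 2 without NFF 3, and 0 without NFF 1, NFF 2 or NFF 4. It was 10 without Control 2, 8 without Control 4, 2 without Control 5 and 16 without SFB 4, SFB 2 and Control 2 together. Over all tested genes, the fits without a single library called 240 to 994 in either direction, and the last fit 862. The mean log2 level of these genes was added to the model as a covariate, an alternative chosen with the data in view. With it, Trpm5 (-1.73, limma adjusted p = 0.0094) and Rgs13 (-1.82, 0.025) were called in SFB against NFF, and Gnat3 (-2.08, 0.052) and Plcb2 (-0.40, 0.255) were not. The covariate did not overlap between SFB (2.32 to 4.28) and NFF (1.51 to 2.06). In that comparison the fit therefore cannot fully separate group from dividing cell level, and lost calls do not show a part of dividing cells. In SFB against Control the same fit called Trpm5 (-1.46, 0.019) and Rgs13 (-1.81, 0.026). Among other secretory cells 1 of 9 Paneth cell genes, the lipase gene Pnliprp2, 0 of 9 goblet cell genes and 2 of 10 enteroendocrine genes, the granin genes Chga and Chgb, fell in SFB against NFF, where 4.2% of tested genes were called lower. Fold changes below 0 were found for 9 of 9 Paneth cell genes, 9 of 9 goblet cell genes and 9 of 10 enteroendocrine genes. Their medians were -1.80, -0.91 and -1.18, and 3, 0 and 5 genes were lower without overlap, against 9.91% of tested genes. In SFB against Control the medians were -2.48, -0.84 and -1.29, with 0 called. There 5, 2 and 1 genes were lower without overlap, against 6.05% of tested genes. Their summed levels were 419 to 13332, 3650 to 8487 and 150 to 366 RPKM in SFB, against 11656 to 18691, 6061 to 15949 and 484 to 1340 RPKM in NFF. In Control these sums were 13724 to 25138, 7666 to 11553 and 386 to 1941 RPKM. The lowest Paneth cell sum was that of SFB 2, and the other SFB libraries stood at 6792 to 13332 RPKM. Of 10 enterocyte genes 1 fell in SFB against NFF, the disaccharidase gene Sis (-1.27, limma adjusted p = 0.031), and 10 of 10 were below 0, with a median of -0.79 and 4 lower without overlap, against 9.91% of tested genes. Their summed level was 1927 RPKM in SFB 4 and 5832 to 7264 RPKM in the other SFB libraries, against 6330 to 7809 RPKM in NFF and 3822 to 11526 RPKM in Control.

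Rgs13 and Plcb2 are also known from blood cells. Of 16 leukocyte markers 5 were measured, with summed levels of 13.2 to 35.8 RPKM in SFB, 25.7 to 36.9 RPKM in NFF and 31.2 to 55.3 RPKM in Control. None of the 5 was listed at 0 in any library. Of the 4 tested, Itgam, an integrin gene, rose in SFB against NFF (1.41, limma adjusted p = 0.019), and Ptprc, the gene of CD45, differed by -0.69 (0.107), at 0.825 RPKM in SFB, 1.89 in NFF and 1.25 in Control. Of 7 mast cell markers 1 was measured, Kit, a growth factor receptor gene. It was called lower in SFB against NFF, by 0.98 (limma adjusted p = 0.019), as were 4.2% of tested genes. A single marker does not show a change in mast cells. The part of these cell types in the levels of the 4 genes was not tested.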

How the data were processed

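Expression was measured by RNA-seq in 11 libraries of sorted small-intestinal epithelial cells. The authors deposited RPKM values with 3 decimals for 11366 genes. Full-length cDNA was made with SMART-seq v4 and libraries with NexteraXT, per the labels' protocols, which add no molecular identifiers. Reads were aligned with STAR to mm10, per the submitters' processing notes. The sources used here do not name the counting tool, the annotation or the gene lengths. RPKM sums were 237248 to 302661 per library. In 45 pairs of libraries, ratios of genes between 0.03 and 0.4 RPKM put at most 6.15% into 1 bin of 0.02 (log2), so reads were not recovered, the depth is unknown and no counting interval is given.

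Values were analysed as log2(RPKM + 1) in R 4.3.3 with limma 3.58.1: genes at 1 RPKM or above in 3 or more libraries (10482 of 11366), 1 mean per group over all 11 libraries (8 residual degrees of freedom), eBayes with trend, and Benjamini-Hochberg adjustment over all genes tested, threshold 0.05. The script was checked on simulated data. No count model was run on these normalized values. Coordinates come from GENCODE M21 and promoters from RefSeq (GRCm38.p6), where all 4 genes matched; 15 symbols turned into dates were restored by Entrez identifier.

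The genes and lists were chosen with earlier results of these data known. Text names the 4 genes, the 8 genes most like them, and from each list every called gene, the 2 of lowest p in SFB against Control and the 2 of highest level, plus Pou2f3, Dclk1, Itpr3, Chat and Gnb1; cell type lists beyond tuft cells are given by counts with examples, and 1 gene that the rule names is not reported here. Alternatives were 2 pseudocounts, 2 filters, 2 scalings, 3 variance settings, a fit of only the groups compared, a replicate block and leaving out each library. A fit without 3 libraries and a covariate for dividing cells were added after the data were seen.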

Additional observations from a re-analysis of the deposited data

How the results depend on the processing

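In SFB against NFF every tested one of the 4 genes was lower under every setting run. The number called was 2 with the dividing cell covariate, 3 without SFB 4, SFB 2 and Control 2 together, 3 to 4 when single libraries were left out, and all tested ones otherwise. Over all tested genes, those fits called 680, 862 and 240 to 994 genes in either direction. Array weights called 4720 of 10482 there, and the remaining settings 337 to 1173. The median was -1.37 with array weights, an estimate that stopped before its tolerance and gave SFB 1 a weight of 22.1 against 0.152 to 2.49 for the others, and -1.78 with the covariate. In SFB against Control the number called was 3 with array weights, 2 with the covariate and 0 to 2 when single libraries were left out, and 0 under the other settings. Array weights called 1948 genes there, against 21 without them, the covariate called 186, and the fits without a single library called 7 to 94. In NFF against Control 0 were called under every setting run, and Plcb2 was -0.054 with the covariate and -0.037 to 0.39 when single libraries were left out, lowest without Control 4. With the marker mean taken over markers of at least 3 RPKM, Trpm5 in SFB was -0.14 and Gnat3 in Control -0.089 relative to it. The stricter filter, and the fit of SFB and Control alone, left Plcb2 untested.

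The labels give replicate numbers but state no pairing. Same-numbered libraries had correlations of their deviations from -0.30 to 0.67, over 0.1 in 2 of 8 pairs. With the replicate block, which leaves out Control 5, 4 genes were called in SFB against NFF (median -2.44), 0 in SFB against Control (-1.28) and 0 in NFF against Control (0.71). Depth was unknown, so no limit of detection is given for Plcb2, whose SFB values lay under 1 RPKM.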
